A study of Oryza sativa with 12 samples.

Results

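The rice line ospid C2 was compared with wild type by RNA sequencing of leaf primordia, the outgrowths of the shoot apex that become leaves. The comparison took the 3 libraries titled ospid C2 and the 3 titled WT out of 12 libraries in the series, chosen by title alone. WT is the cultivar Nipponbare, and ospid C2 is a line whose genotype is labelled as a knockout of OsPID. A second line with the same genotype label, ospid C1, and a line labelled as a knockout of both OsPIN1c and OsPIN1d (ospin1c ospin1d), with 3 libraries each, entered the estimate of spread, the values set beside those of ospid C2 and direct contrasts with ospid C2. Growth conditions were alike for the groups, with 15 h light periods (28 °C) and 9 h dark periods (24 °C). The sources used here do not give how the knockout was made or whether each library came from separate plants, so p-values measure only the spread between these libraries, which may be technical.

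PINOID is a protein kinase of plants that phosphorylates PIN proteins, the carriers that move the hormone auxin out of cells, and so takes part in setting the direction in which auxin flows. Auxin that collects at the flank of the shoot apex marks the place where the next leaf primordium forms, and in Arabidopsis the loss of PINOID gives pin-shaped inflorescences with few flowers. The deposited tables give identifiers of the rice annotation and no gene names, and only 1 of 32552 identifiers was found in a table of 39387 rice genes. Gene names, functions and sequences are therefore not given, the level of OsPID itself was not looked up, and neither the genotype labels nor the labelled tissue was checked against any gene. In identifiers starting with Os, the digits right after Os are the chromosome number by convention.

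The values are FPKM, the reads of a gene divided by its length and by the depth of its library. The depths by which the FPKM of the 6 libraries were divided were 15211547 to 16422849 reads, derived from the smallest steps of FPKM. Reads recovered for the listed identifiers made up 99.98% of each, so reads outside these identifiers are hardly part of these depths. For a gene of 1000 bases 1 read was worth 0.0609 to 0.0657 FPKM. Across the tested genes, libraries of ospid C2 correlated with each other at 0.961 to 0.980 (Pearson's r of log2 values, a description across genes) and with WT at 0.927 to 0.961. On the first principal component of the 6 libraries, with 54.3% of the variance, WT stood at -40.0 to -34.3 and ospid C2 replicates 1, 2 and 3 at 16.5, 36.5 and 57.6. Replicate 1 of ospid C2 thus stood nearest to WT, and it carried 44.9% of the within-group sum of squares of ospid C2 against 16.9% for replicate 2 and 38.2% for replicate 3. Replicate 3 stood farthest from WT and correlated with the WT libraries at 0.927 to 0.933. The counts of rises and falls, overall and by gene length, are also given without replicate 1, a check that was part of the plan.

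In ospid C2, 897 genes rose and 1316 fell among 19750 tested, where a gene was tested if it reached 1 FPKM or more in at least 3 of the 6 libraries. Called genes were 11.2% of those tested, 4.54% up and 6.66% down. The test was limma on log2(FPKM + 1) with a Benjamini-Hochberg adjusted p under 0.05, and all log2 changes are on that scale, on which changes of low genes come out too small. The median size of a called change was 0.883 on the log2 scale for rises and 0.864 for falls, and 362 rises and 503 falls reached at least 1. The groups did not overlap for 876 of the 897 rises and 1314 of the 1316 falls. Over all tested genes, the groups did not overlap for 15.7% with ospid C2 higher and 14.3% with ospid C2 lower. By kind of identifier, 856 of the 18679 tested that start with Os rose and 1300 fell, and 41 of the 1071 that start with EPlOSAG rose and 16 fell.

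The balance of rises and falls depended on which ospid C2 library was left out and on the scaling between libraries. Without replicate 1, 1892 genes rose and 1411 fell, so rises became the larger group at 57.3% of calls against 40.5% with all libraries. Without replicate 2, 272 rose and 926 fell (22.7% up), and without replicate 3, 268 rose and 808 fell (24.9% up), so rises then made up a smaller share. With median-ratio scaling, which sets the typical gene to no difference between libraries, falls stayed the larger group with replicate 1 (968 up, 1540 down) and without it (1352 up, 1991 down). Over all tested genes the change had a median of 0.06 on the deposited scale, 0.11 without replicate 1 and 0.00 with median-ratio scaling (log2). With only WT and ospid C2 in the fit, 441 genes rose and 877 fell. Called in the same direction under all of these 4 settings (as deposited, median-ratio scaling, only the 6 libraries, and without replicate 1) were 316 rises and 797 falls. Of the rises, 105 were not tested without replicate 1, since fewer than 3 libraries then reached 1 FPKM.

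**Figure D1:**
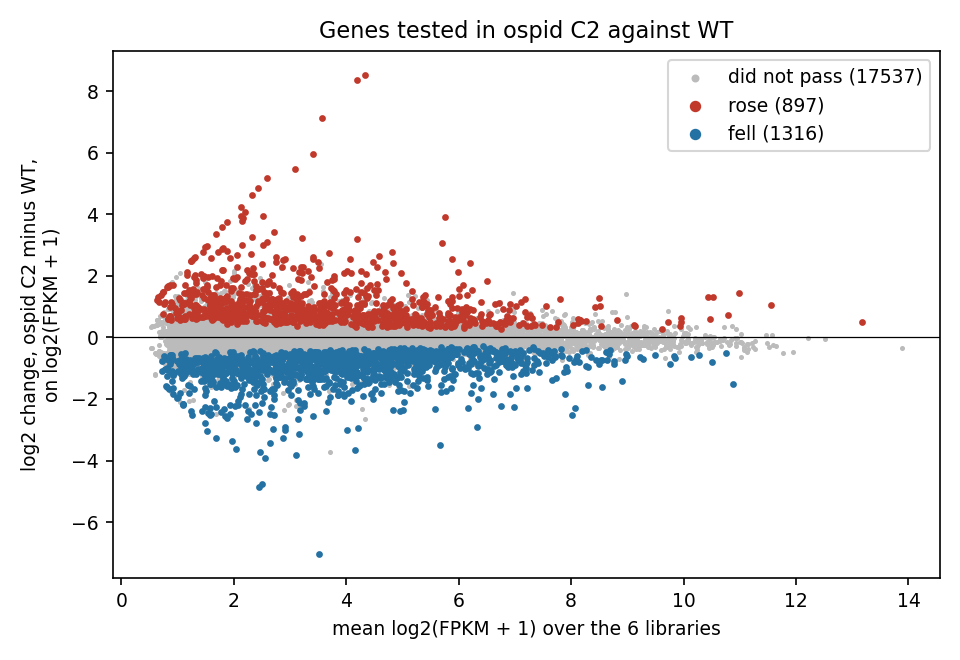
Each point is 1 of the 19750 tested genes, with its mean log2(FPKM + 1) over the 6 libraries on the horizontal axis and its log2 change (ospid C2 minus WT, on log2(FPKM + 1)) on the vertical axis. The 897 genes that rose are red and the 1316 that fell blue, and the topmost point, at a log2 change of 8.53, is Os01g0537250.

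A gene was named here if it had the largest log2 change among identifiers starting with Os that were called under the deposited and the median-ratio scaling, did not overlap between the groups, reached a mean of at least 5 FPKM in the higher group and kept its direction without replicate 1. The last of these conditions follows from the lack of overlap, so it excluded no gene. The 2 first rises and the 2 first falls are given, from 584 rises and 1070 falls that met the rule. The sources used here do not annotate what they encode. The 2 rises passed the filter through ospid C2 alone, and the 2 falls through WT alone. They were then picked by the size of their change, so their p-values describe the selection and are no separate support.

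Os01g0537250 on chromosome 1 had the largest rise. It stood at 418, 377 and 368 FPKM in ospid C2 replicates 1, 2 and 3, and at 0, 0 and 0.154 FPKM in WT, where the last value came from 3 reads. The WT libraries were thus at or near 0 and the ospid C2 libraries within a narrow range, with replicate 1 the highest. The log2 change was 8.53 (SE 0.216, adjusted p = 9.75e-10 by limma), and over the 21 settings in which it was tested the adjusted p ran from 1.42e-11 to 2.02e-05. In ospid C1 it was at 357 ± 44.0 FPKM (SD, n = 3), and the direct difference between the ospid lines was 0.12 on the log2 scale (SE 0.216, adjusted p = 0.857 by limma).

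Os03g0115800 on chromosome 3 stood at 296, 324 and 368 FPKM in ospid C2, from 6959, 7534 and 8017 reads. It was listed at 0 in all 3 WT libraries (adjusted p = 8.38e-05 by limma, 0.0328 by voom on the recovered reads). Replicate 1 was here the lowest of the 3 ospid C2 libraries. In ospin1c ospin1d the same identifier was uneven, at 66.2, 49.3 and 3.30 FPKM, with every library below those of ospid C2. That unevenness entered the shared spread of the fit, in which the log2 change of ospid C2 from WT was 8.36 (SE 0.744). Over the 21 settings the adjusted p ran from 1.42e-11 by limma without ospin1c ospin1d replicate 3 to 0.0328 by voom.

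Os01g0520180, also on chromosome 1, stood at 33.1, 20.03 and 34.3 FPKM in WT, from 250, 158 and 271 reads, and was listed at 0 in all 3 ospid C2 libraries (adjusted p = 5.09e-08 by limma). It was listed at 0 in ospid C1 and in ospin1c ospin1d as well, so WT was the only group of the series with reads of this identifier. The shared spread of the fit thus took in 3 groups without any spread, which makes the SE small (log2 change -4.88, SE 0.185). With only the 6 libraries in the fit the adjusted p was 6.45e-05 by limma. Over the 24 settings in which the identifier was tested the adjusted p ran from 2.83e-08 to 0.00086.

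Os11g0678200 on chromosome 11 stood at 33.1, 27.3 and 25.1 FPKM in WT and at 0.0777, 0 and 0.168 FPKM in ospid C2. These ospid C2 values rest on 1, 0 and 2 reads, against 322 to 405 reads in WT. The log2 change was -4.76 (SE 0.28, adjusted p = 2.38e-06 by limma), and the adjusted p stayed between 3.06e-07 and 0.0015 over the 24 settings tested. In ospid C1 it was at 0, 0 and 0.164 FPKM, as low as in ospid C2. In ospin1c ospin1d it stood at 62.0, 35.3 and 98.5 FPKM, each above the highest WT library. The treatment of reads shared by near-identical copies was not stated, so levels at or near 0 are uncertain where an identifier has such a copy.

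**Figure D2:**
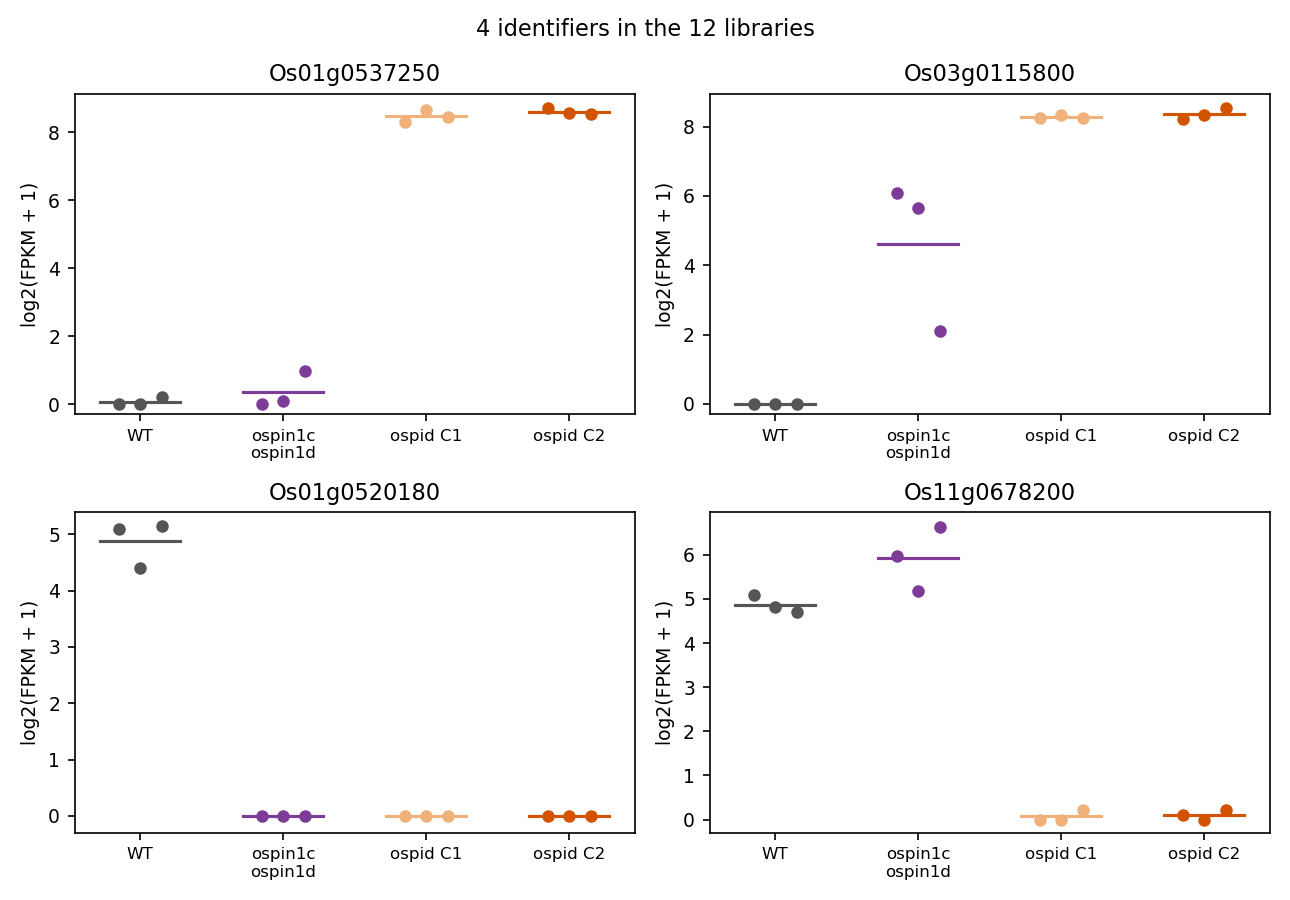
Levels of the 4 named identifiers as log2(FPKM + 1) in each of the 12 libraries, with 1 point per library and a line at the mean of each group of 3. The ospid C2 points lie near those of ospid C1 in all 4 panels, and WT stands apart from them in each.

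In all, 11 identifiers starting with Os were listed at 0 in every WT library and at 1 FPKM or more in every ospid C2 library, Os03g0115800 among them. They reached the filter through ospid C2 alone, so no count of calls is drawn from them. Their mean levels in ospid C2 ran from 1.79 to 329 FPKM with a median of 11.1, and 6 reached at least 10 FPKM. In ospid C1, 9 of the 11 were also at 1 FPKM or more in every library, and in ospin1c ospin1d 2 were, while 4 were at 0 in every ospin1c ospin1d library. The reverse pattern, 0 in every ospid C2 library and 1 FPKM or more in every WT library, held for 7 identifiers starting with Os, with WT means of 2.23 to 29.1 FPKM. Of these 7, 4 were also at 0 in every ospid C1 library. Both mutant comparisons share the WT libraries, so the values of ospid C1 and ospin1c ospin1d are given beside those of ospid C2 and not as a second count of evidence.

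The 5 called genes with the highest level in WT comprised 2 rises and 3 falls. The most abundant stood at 7543, 8434 and 7365 FPKM in WT and at 11240, 10813 and 11197 FPKM in ospid C2, so its groups were apart by more than their own ranges, with a log2 change of 0.51 (SE 0.0897, adjusted p = 0.00441 by limma). With only the 6 libraries in the fit its adjusted p was 0.0547. The second stood at 2496, 3900 and 3323 FPKM in WT and at 1455, 1489 and 645 FPKM in ospid C2, where it fell by 1.51 on the log2 scale (SE 0.308, adjusted p = 0.0097 by limma). The other 3 had log2 changes of 1.06, -0.51 and -0.81, and with only the 6 libraries the first 2 of these were no longer called (adjusted p = 0.112 and 0.122 by limma). The third overlapped between the groups, at 1651 to 2979 FPKM in WT and 2666 to 6281 FPKM in ospid C2. Falls were called more often at high than at low levels. Of genes with a mean of 100 FPKM or more 9.47% fell and 5.31% rose, and of genes under 5 FPKM 4.30% fell and 3.74% rose.

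The genes that fell were shorter than those that rose. Lengths were worked out from the same FPKM steps as the depths, taking the shortest length at which all libraries had whole reads, and are lower bounds. Identifiers starting with Os that fell had a median length of 1056 bases, against 1469 for those that rose and 1527 for all tested. Of 3874 genes of 500 to under 1000 bases, 513 fell (13.2%) and 185 rose (4.78%). Of 1953 genes of 3000 bases or more, 16 fell (0.819%) and 76 rose (3.89%). In the classes between them, the share that fell was 8.69% at 1000 to under 1500 bases, 5.17% at 1500 to under 2000 and 2.63% at 2000 to under 3000, while the share that rose stayed between 4.44% and 4.94%. Of 623 genes under 500 bases, 74 fell (11.9%) and 27 rose (4.33%), so the share that fell declined only from 500 bases upward. With all libraries, falls outnumbered rises in each class under 2000 bases and rises outnumbered falls in both classes above. Without replicate 1 of ospid C2 the shares that fell were close to these, from 14.8% at 500 to under 1000 bases to 0.937% at 3000 bases or more. The shares that rose were larger and differed more between classes, at 8.19%, 9.69%, 11.2%, 11.6% and 9.99% from 500 bases upward. Rises then outnumbered falls from 1000 bases upward, with 436 up and 424 down at 1000 to under 1500 bases and 434 up and 209 down at 1500 to under 2000.

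The median log2 change rose with length. It was -0.11 for genes under 500 bases and -0.09 at 500 to under 1000. In the longer classes it was 0.01 at 1000 to under 1500, 0.08 at 1500 to under 2000, 0.13 at 2000 to under 3000 and 0.18 at 3000 bases or more. Among genes with a mean of 20 FPKM or more, 13.4% of those of 500 to under 1000 bases fell against 1.25% of those of 3000 bases or more. The median level in this subset still differed, at 64.8 and 30.9 FPKM, and the part of level was not tested. Against ospin1c ospin1d, ospid C2 showed the order as well from 500 bases upward, in the same fit and over the same genes. WT libraries thus entered the choice of genes and the spread but not the difference. There 388 of the 3874 genes of 500 to under 1000 bases were lower in ospid C2 and 144 were higher. Of the 1953 genes of 3000 bases or more, 7 were lower and 75 were higher. Over all 19750 genes tested, 1015 were lower and 768 higher, which is 9.03% called in either direction.

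The strength of this length pattern differed between the libraries of ospid C2. The median difference from WT of genes of 3000 bases or more, minus that of genes of 500 to under 1000 bases, was 0.08 in replicate 1, 0.27 in replicate 2 and 0.45 in replicate 3 on the log2 scale. A WT library set against the other WT libraries gave -0.04, 0.00 and 0.03, and the ospin1c ospin1d libraries gave 0.07, -0.03 and 0.03. The ospid C1 libraries gave 0.59, 0.15 and 0.31, so libraries with the same genotype label differed widely. Measured for every library against the mean of all 12, the contrast was 0.123 ± 0.158 in ospid C2 and -0.169 ± 0.025 in WT (SD, n = 3 each) without overlap, with p = 0.1 by a two-sided exact permutation test, the smallest value that 3 against 3 can give. Reads in identifiers under 1000 bases made up 27.4% to 31.5% of the recovered reads in ospid C2, most in replicate 1 and least in replicate 3. In WT they made up 31.2% to 32.5% (two-sided exact permutation p = 0.3). The order of the 3 ospid C2 libraries was the same on the first principal component. The part of these library differences in the counts of falls was not tested.

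**Figure D3:**
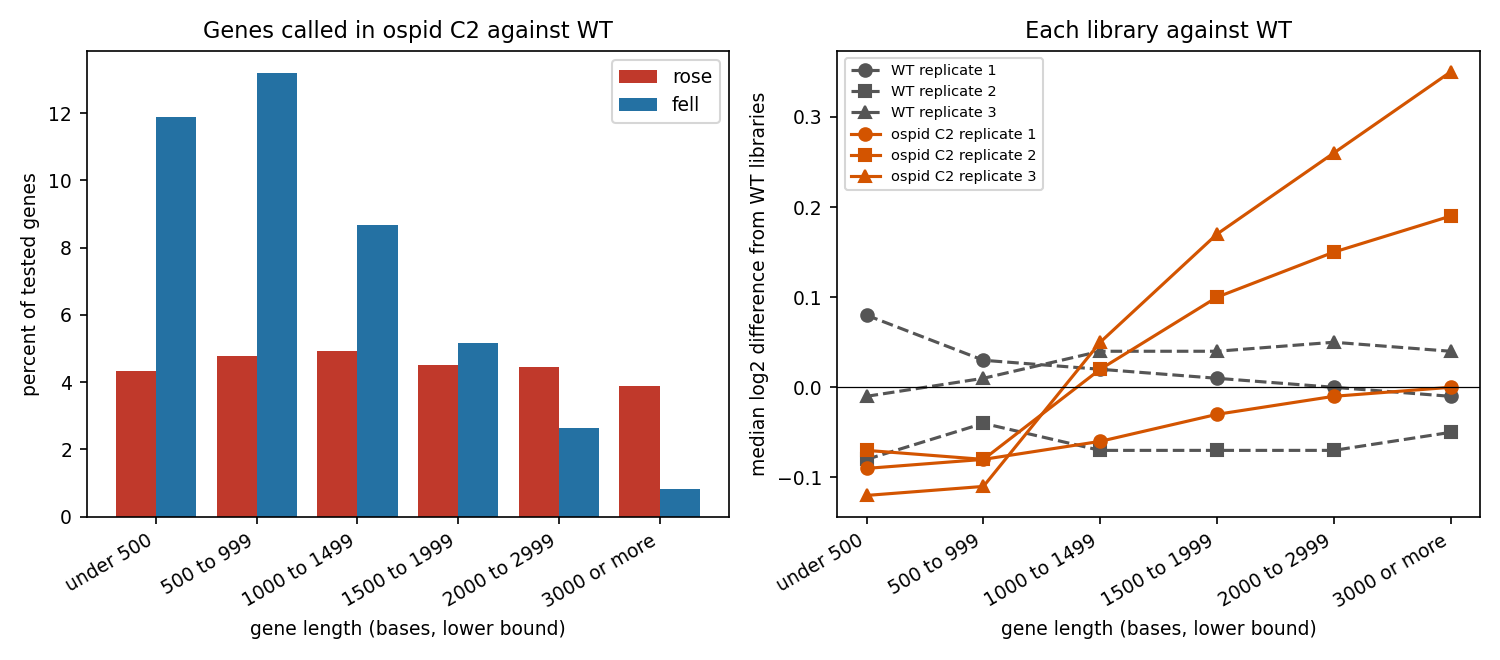
Left, the percent of tested genes that rose (red) and fell (blue) in ospid C2 against WT, by gene length in bases. Right, the median log2 difference of each WT library from the other WT libraries (dashed) and of each ospid C2 library from the WT mean (solid), by the same classes; the ospid C2 lines climb with length, least in replicate 1 and most in replicate 3.

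A correction chosen after the pattern was seen removed, within each library, the median offset from the gene means over the 12 libraries. The offsets were taken at 40 length quantiles and interpolated between them. After it, 1035 genes rose and 1409 fell. Of the genes called as deposited, 800 of 897 rises and 1195 of 1316 falls were called in the same direction after the correction. The median change of each length class given above is then near 0 by construction. Of genes of 500 to under 1000 bases, 11.1% then fell, against 2.41% of those of 3000 bases or more. The shares that rose were 7.80% and 3.02%, so both kinds of call were fewer in the longest class. The median level of these 2 classes was 14.7 and 4.8 FPKM, and the part of level was not tested here either. Falls then outnumbered rises at 2000 to under 3000 bases too (144 up, 175 down). With replicate 1 left out as well, 1389 rose and 1656 fell.

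Replicate 1 of ospid C2 had the smallest median change over the genes that rose, and on the deposited scale not over those that fell. Over the 897 rises, the median difference from the WT mean was 0.56 in replicate 1, 0.93 in replicate 2 and 1.09 in replicate 3 on the log2 scale. Over the 1316 falls it was -0.88, -0.74 and -0.95. These genes were called with the same libraries, so the values describe the calls and test nothing. Replicate 1 was the lowest of the 3 libraries for 81.4% of the rises, against 60.9% of all tested genes. With median-ratio scaling these shares were 60.1% and 40.1%, and the medians over the rises 0.63, 0.85 and 0.93. Replicate 1 was the highest of the 3 libraries for 33.4% of the falls, against 23.3% of all tested genes. With median-ratio scaling these shares were 51.3% and 41.7%, and the medians over the falls -0.82, -0.83 and -1.10. The scaling factor of replicate 1 was 0.9093, against 1.024 and 1.084 for replicates 2 and 3 and 0.9289 to 0.9784 for WT. The 100 highest identifiers of replicate 1 took 20.3% of its recovered reads, against 18.2% in replicate 2 and 16.9% in replicate 3. The part of the scaling factor and of these identifiers in the difference was not tested.

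**Figure D4:**
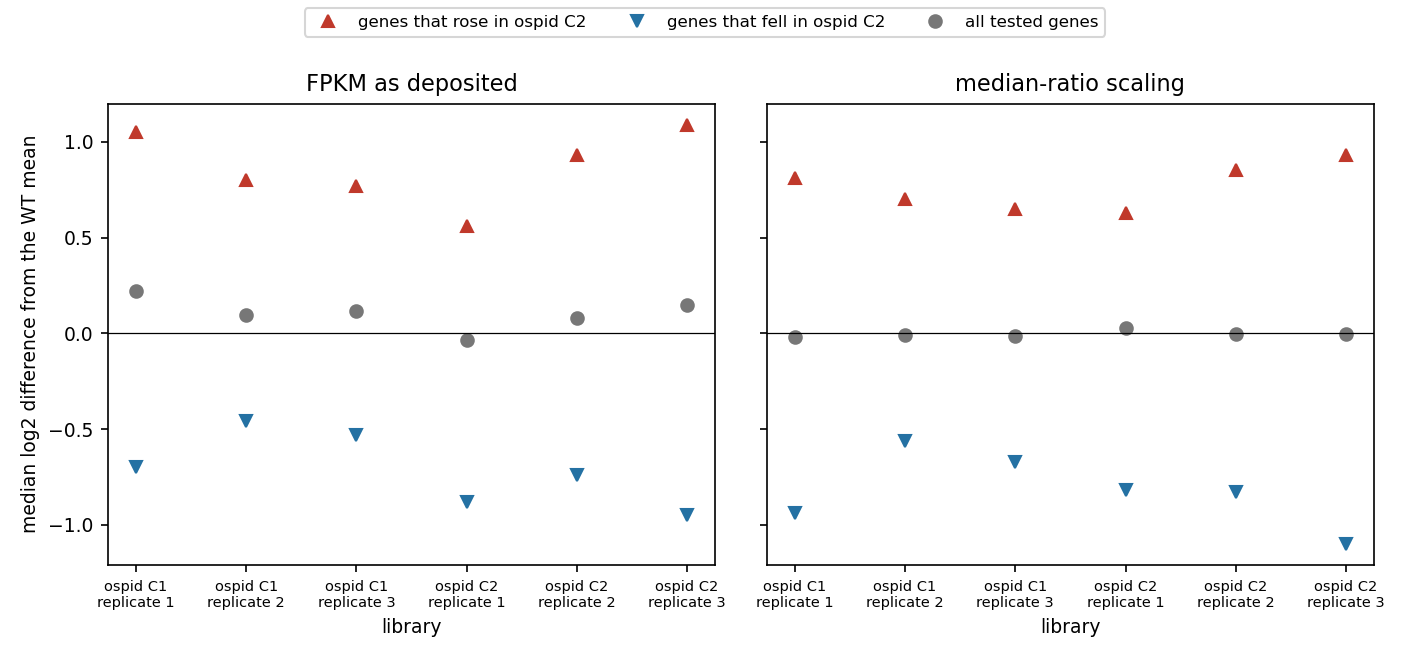
Median log2 difference from the WT mean in each ospid C1 and ospid C2 library, over the genes that rose in ospid C2 (red), those that fell (blue) and all tested genes (grey), for FPKM as deposited (left) and with median-ratio scaling (right). The genes were chosen by their values in the ospid C2 libraries; replicate 1 of ospid C2 has the lowest red point as deposited, at 0.56.

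Among neighbouring tested identifiers along a chromosome, 94 runs of 2 and 15 runs of 3 consecutive falls were found, and 50 runs of 2 and 5 runs of 3 consecutive rises. Falls were also the more common call, at 1300 of the 18679 tested identifiers starting with Os against 856 rises. More runs of falls than of rises are thus to be found without any clustering, and an expected number of runs was not worked out. Longer runs were found only for falls, 1 of 4 on chromosome 2 and 1 of 5 on chromosome 7, and they are described after their values were seen. The run of 4 holds the 277th to 280th of 2192 tested identifiers on chromosome 2. Its first member stood at 33.8, 29.6 and 31.1 FPKM in WT and at 0.884, 1.30 and 1.82 FPKM in ospid C2. Its second, the most abundant, stood at 246, 192 and 229 FPKM in WT and at 24.3, 27.5 and 33.5 FPKM in ospid C2. The third was at 6.69 to 9.61 FPKM in WT and 0.302 to 0.646 in ospid C2, and the fourth at 4.59 to 7.76 and 0 to 0.1002. The groups were thus far apart for every member, with log2 changes of -3.82 to -2.63 and adjusted p of 7.36e-06 to 0.000264 by limma. All 4 were also called with only the 6 libraries in the fit and after the length correction.

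In ospin1c ospin1d the second of these neighbours was at 174, 201 and 207 FPKM and in ospid C1 at 32.3, 45.6 and 14.8 FPKM. The run of 5 on chromosome 7 showed smaller changes of -1.18 to -0.59 on the log2 scale. Only 2 of its 5 members were called with only the 6 libraries in the fit, and all 5 after the length correction.

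A direct comparison of ospid C2 with ospid C1 asked where the lines with the same genotype label differ. By limma 0 of 19750 genes passed (0% called), the lowest adjusted p was 0.0521, and voom on the recovered reads also called 0. An unadjusted p under 0.05 was reached by 2106 genes, 1663 lower and 443 higher in ospid C2. With median-ratio scaling the numbers were 883 lower and 989 higher, so the excess of lower genes was seen on the deposited scale, where the median difference over tested genes was -0.09, and not with median-ratio scaling. The median SE of a difference was 0.169 on the log2 scale, so modest differences between the lines could not have been detected gene by gene. Leaving out replicate 2 of ospid C2 gave 54 calls, 52 of them lower in ospid C2, and leaving out any other library of the lines gave 0.

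Over the genes called in ospid C2, the median log2 change from WT of the rises was 0.88 in ospid C2 and 0.88 in ospid C1, and 0.40 in ospin1c ospin1d. Over the falls it was -0.86 in ospid C2, -0.57 in ospid C1 and -0.24 in ospin1c ospin1d. These values are on the deposited scale, where the median over all tested genes was 0.06, 0.14 and -0.02 in the same order. With median-ratio scaling, the ospid C1 libraries stood at 0.81, 0.70 and 0.65 over the rises, against 0.63, 0.85 and 0.93 in ospid C2. Over the falls the ospid C1 libraries then stood at -0.94, -0.56 and -0.67, against -0.82, -0.83 and -1.10 in ospid C2. The genes were chosen in ospid C2 and the WT libraries are shared, so these medians are descriptions.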

How the data were processed

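RNA sequencing of total RNA (2 µg per library) from leaf primordia was used. The authors deposited 1 table of FPKM values per library for 32552 identifiers, per the file headers. Named in the submitters' processing notes are HTSeq 0.6.0, HISAT2 2.1.0 and Bowtie2 2.2.3, and the build IRGSP-1.0, with no role given. The sources used here do not give the strand setting, filters or treatment of shared reads. Depths were worked out from the FPKM steps of low genes: at the total taken for WT replicate 1, 70.15% of 4000 implied lengths were whole (tolerance 0.05 bases), and 9.98% at a typical other total. Fractions of that total also gave whole lengths, and the largest total at which most lengths were whole was taken. Depths, lengths and recovered reads all rest on that choice. The implied length takes the lowest library above 0 to hold 1 read, and need not be whole where it held more. Recovered reads summed to 99.96% to 99.98% of depth.

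The fit held all 12 libraries with 1 mean for each group (limma 3.58.1, R 4.3.3, mean-dependent prior, pseudocount 1 FPKM), so the spread is shared between groups; p-values were adjusted over all genes tested. The fit was tested on simulated data with 200 changed genes among 19750, the changed ones drawn from those at higher levels. It called 83% of changes of 1 and 97% of changes of 2 on the log2 scale, with 11 false calls. The simulated noise was independent between genes and held no offset of a library by gene length or scaling. The test therefore says nothing about such offsets. Alternatives changed the scaling, filter, pseudocount, libraries in the fit, block and test. Genes were named by the size of their change under the rule given above. Lists of product names could not be applied, since the identifiers carry no names, and the naming rule that needs no name was used. Members, rules and lists were chosen with earlier results of these data known.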

Additional observations from a re-analysis of the deposited data

Results flagged for a closer look

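Among the 4 named identifiers, which were picked for the largest changes in ospid C2, 3 differed between ospid C2 and ospin1c ospin1d in a direct limma contrast. Of all 19750 genes tested, 9.03% were called in that contrast. The difference, ospid C2 minus ospin1c ospin1d on the log2 scale, was 8.25 for Os01g0537250 (SE 0.216, adjusted p = 5.77e-10), which was at or near 0 in WT and in ospin1c ospin1d. It was 3.75 for Os03g0115800 (SE 0.744, adjusted p = 0.0109), which ospin1c ospin1d also expressed, unevenly. It was -5.82 for Os11g0678200 (SE 0.28, adjusted p = 2.97e-07), which stood above WT in every ospin1c ospin1d library and at or near 0 in every ospid C2 library. Groups of 3 were too small to look for single outlying libraries.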

How the results depend on the processing

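For the 4 named identifiers, neither the direction nor the call changed in any of 86 values under alternatives; they were picked for large changes without overlap, and the 2 rises could not be tested without any one ospid C2 library, replicate 1 included, nor the 2 falls without any one WT library, since fewer than 3 libraries then passed the filter. For ospid C2 against WT, the count of 2213 (897 up, 1316 down) was 1318 (441 up, 877 down) with only the 6 libraries, 3343 (1352 up, 1991 down) with median-ratio scaling and without ospid C2 replicate 1, and 865 (362 up, 503 down) at a log2 change of at least 1, which lowers counts by construction. Rises alone moved to 548 with only the 6 libraries and median-ratio scaling, to 1458 with only the 6 libraries and without ospid C2 replicate 1, and to 1389 with the length correction and without ospid C2 replicate 1. Leaving out each of the 12 libraries in turn gave 1076 to 3303 calls, 268 to 1892 rises and 800 to 1411 falls. The counts of all calls were 1372, 1438 and 1395 without WT replicates 1, 2 and 3, and 1198 and 1076 without ospid C2 replicates 2 and 3. Quantile normalization, no filter, a mean of 5 FPKM, a pseudocount of 0.1 and voom gave 1724 to 2557 calls. The labels do not say whether the replicate numbers pair the samples. Same-numbered WT and ospid C2 libraries did not deviate together (r = -0.178 to -0.00169 across genes over 3 pairs). These correlations cannot show whether the libraries were grown or prepared together. With the replicate block the count was 1782, and 2090 with median-ratio scaling. For ospid C2 against ospid C1 the count went from 0 to 3, all lower in ospid C2, with the replicate block, and 0 to 54 when single libraries of either line were left out. The cause was not tested. The length correction, the voom test between the ospid lines, and leaving out libraries of the other groups were chosen after seeing the data. Lengths are lower bounds, so the shortest classes may hold longer genes.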
